A study of Mus musculus with 4 samples.

Results

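The 36 genes described here are those whose products copy DNA or carry a cell through mitosis, out of 31053 features in the count tables. They were taken by symbol, 12 for S phase and 24 for G2 and mitosis (G2/M), and all 36 symbols were present once. Single cells came from dissociated tibial and femur epiphyses, the cartilage ends of the long bones with the marrow that clings to them, captured with Chromium version 3 chemistry. The groups were Sox9fl:fl AcanCreERT2/+ mice (called Sox9 mutant) at postnatal day 19, wild type mice at day 19, Sox9 mutant mice at day 13 and wild type mice at day 13, with 1 library each. By the labels, the mutants carry 2 floxed Sox9 alleles and 1 AcanCreERT2 allele and the others are wild type, so no group has the Cre or the floxed alleles alone. The design text of the series speaks instead of older mice and of a further Sox8 and Sox9 mutant, and the labels of the samples were followed here. That Cre is driven by the aggrecan gene, a cartilage gene, and acts after tamoxifen. No source used here gives the tamoxifen schedule, which exons are floxed, the strain or how many mice a library pooled. SOX9 is the transcription factor that keeps cartilage cells in their fate.

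A dividing cell first copies its DNA (S phase) and then separates the copies (mitosis). Genes for the copying machinery are switched on ahead of S phase by E2F factors, and genes for mitosis follow later under the DREAM and MYB-MuvB complexes, which act through the CHR and CCAAT promoter elements. In the growth plate, column-forming chondrocytes divide and then stop dividing before they enlarge. Bone marrow of young mice holds rapidly dividing precursors of red cells, B cells and granulocytes, whereas mature neutrophils no longer divide.

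The 4 libraries held 70507107 to 76080803 unique transcript counts (UMIs). After barcodes under 500 genes or above 15% mitochondrial UMIs and doublets were removed, there remained 9655 cells of the mutant and 7104 of the wild type at day 19, and 7285 cells of the mutant and 6219 of the wild type at day 13. Between 10 and 35 barcodes were shared by any pair of libraries. Cells were clustered without the cell cycle genes, so that the members did not define the clusters, and clusters were named from markers. Sox9 itself was measured at 171 UMIs per 1000000 UMIs of the cells summed (CPM) in mutant and 452 CPM in wild type chondrocyte-like cells at day 19, and at 194 CPM in mutant and 358 CPM in wild type at day 13. Acan, whose locus carries the Cre, was measured at 1220 CPM in mutant and 4312 CPM in wild type at day 19, and at 1014 CPM in mutant and 4347 CPM in wild type at day 13. Where the floxed exons lie relative to the counted 3′ ends is unknown, so the Sox9 level is a check of the labels in direction only.

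RefSeq promoters (GRCm38.p6, 250 bases before to 50 after the start) were found for 20 of the 24 G2/M members and 10 of the 12 S members, and not for Tpx2, Ccne2, Pbk, Ccna2, Mcm4 and Aurkb. On either strand, a CHR-type word (TTTGAA or TTTAAA) stood in 19 of 20 G2/M promoters, 4 of 10 S promoters and 27.6% of all 32851 promoters in the table. The word CCAAT stood in 18 of 20 G2/M promoters, 8 of 10 S promoters and 37.4% of all promoters. Both words occurred together in 17 of 20 G2/M promoters, 3 of 10 S promoters and 10.7% of all promoters. An E2F-type word (TTTCCCGC, TTTGGCGC, TTTCGCGC or TTTGCCGC) stood in 4 of 10 S promoters (Mcm3, Mcm5, Mcm6 and Mcm7), in 1 of 20 G2/M promoters (Cdk1) and in 2.26% of all promoters. These are matches of letters, not shown sites. The 120 bases before the start are printed for 4 central G2/M genes and for the members called in chondrocyte-like cells below that have an entry. Capitals mark the words searched, ATTGG being CCAAT read on the other strand, and neighbouring matches run together.
Ccnb1: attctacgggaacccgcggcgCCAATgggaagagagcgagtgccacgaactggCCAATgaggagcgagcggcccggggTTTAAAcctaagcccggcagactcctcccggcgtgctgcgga
Cdk1: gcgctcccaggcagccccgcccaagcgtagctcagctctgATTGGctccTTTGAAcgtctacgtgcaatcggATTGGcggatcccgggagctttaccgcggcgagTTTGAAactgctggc
Plk1: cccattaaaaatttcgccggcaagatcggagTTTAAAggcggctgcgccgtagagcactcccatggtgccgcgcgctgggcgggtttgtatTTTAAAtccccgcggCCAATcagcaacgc
Top2a: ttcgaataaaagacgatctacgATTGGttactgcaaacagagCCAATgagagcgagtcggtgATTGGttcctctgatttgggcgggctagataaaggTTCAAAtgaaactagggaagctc
Cdc20: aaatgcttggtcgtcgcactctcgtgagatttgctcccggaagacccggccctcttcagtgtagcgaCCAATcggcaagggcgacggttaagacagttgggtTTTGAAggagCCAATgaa
Cenpa: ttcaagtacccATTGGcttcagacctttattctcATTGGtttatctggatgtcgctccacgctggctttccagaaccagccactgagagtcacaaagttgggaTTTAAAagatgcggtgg
Rrm2: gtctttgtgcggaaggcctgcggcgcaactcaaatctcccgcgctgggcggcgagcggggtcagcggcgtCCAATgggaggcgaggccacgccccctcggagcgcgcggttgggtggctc
Mcm6: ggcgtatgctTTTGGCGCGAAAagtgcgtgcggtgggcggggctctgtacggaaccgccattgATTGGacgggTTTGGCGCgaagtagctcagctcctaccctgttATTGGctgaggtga
The stretches lie at Ccnb1 chr13:100786487-100786606, minus strand, Cdk1 chr10:69352913-69353032, minus strand, Plk1 chr7:122159315-122159434, plus strand, Top2a chr11:99024190-99024309, minus strand, Cdc20 chr4:118437344-118437463, minus strand, Cenpa chr5:30666766-30666885, plus strand, Rrm2 chr12:24708134-24708253, plus strand and Mcm6 chr1:128359706-128359825, minus strand. In Ccnb1, Cdk1, Top2a, Cdc20 and Cenpa a CHR-type word lies nearer the start than at least 1 CCAAT word, and in Plk1 the CCAAT word is the nearest. In Mcm6 an E2F-type word lies on each side of a CCAAT word, the farther one being an overlapping pair of words, and no CHR-type word was found.

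The G2/M genes were highest in erythroid-like and B cell-like cells and low in mutant osteoblast-like cells. For the S genes this order did not hold in every library. In the day 19 wild type, myeloid progenitor-like cells stood slightly above erythroid-like cells in the S sum, and in the day 19 mutant they stood below. In erythroid-like cells, the 23 G2/M genes other than Hmgb2 summed to 6491 CPM in the mutant and 5774 CPM in the wild type at day 19, and to 5268 CPM in the mutant and 7114 CPM in the wild type at day 13. In B cell-like cells they summed to 4520 CPM in the mutant against 5206 CPM in the wild type at day 19, and to 4110 CPM in the mutant against 3284 CPM in the wild type at day 13. Chondrocyte-like cells carried 620 CPM in the mutant and 954 CPM in the wild type at day 19, and 607 CPM in the mutant and 488 CPM in the wild type at day 13. Osteoblast-like cells were the lowest of the named classes in both mutant libraries, with 113 CPM at day 19 and 104 CPM at day 13, and the wild type libraries held only 11 of them at day 19 and 22 at day 13. The 12 S genes summed to 1741 CPM in mutant and 1543 CPM in wild type erythroid-like cells at day 19, and to 92.9 CPM in mutant osteoblast-like cells.

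**Figure D1:**
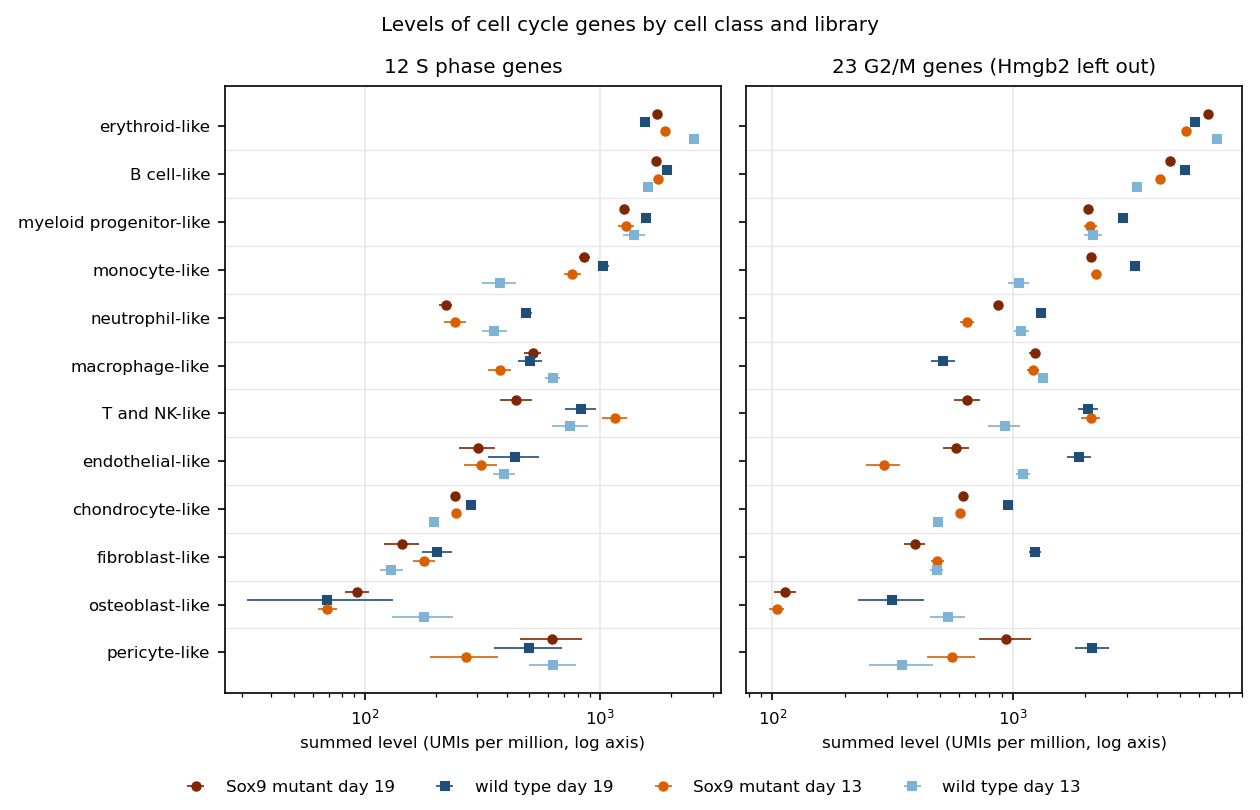
Summed level of the 12 S genes (left) and of the 23 G2/M genes without Hmgb2 (right) in CPM on log axes, by cell class (rows) and library (colours). Bars are exact Poisson 95% intervals, which cover counting error only, and classes such as osteoblast-like in wild type (11 and 22 cells) rest on few cells. Erythroid-like cells lie at 5268 to 7114 CPM for the G2/M genes and chondrocyte-like cells at 488 to 954 CPM.

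For fractions of cells, each cell was thinned to 2000 UMIs and called G2/M with 3 or more UMIs of the 24 G2/M genes, or S with 2 or more UMIs of the 12 S genes and no G2/M call. Several G2/M genes (Top2a, Mki67, Cdk1, Hmgb2) are also on in S phase, so the G2/M call takes in late S cells. Among chondrocyte-like cells 8.50% of the mutant and 13.6% of the wild type were called G2/M at day 19, and 7.52% of the mutant and 6.43% of the wild type at day 13. The exact (Clopper-Pearson) intervals were 7.48 to 9.61% and 11.6 to 15.8% at day 19, which did not overlap, and 6.64 to 8.48% and 5.72 to 7.21% at day 13, which did. S fractions were 4.45% in the mutant and 5.39% in the wild type at day 19, and 4.60% in the mutant and 4.06% in the wild type at day 13, with overlapping intervals at both ages. Unthinned, the G2/M call took 33.4% of mutant cells (median 9412 UMIs) and 537 of 1074 wild type cells (16734 UMIs) at day 19, and 34.7% of mutant cells (10626 UMIs) and 22.4% of wild type cells (11764 UMIs) at day 13. Cells under 2000 UMIs were left out, 106 in the mutant and 16 in the wild type at day 19, and 106 in the mutant and 99 in the wild type at day 13. Intervals cover counting error only, and with 1 library a group the difference has no replicate check.

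Chondrocyte-like cells called G2/M without counting Hmgb2 were deeper than the rest, with medians of 13171 to 25791 UMIs against 9406 to 15737 in cells with neither call. As a level of background, mature neutrophil-like cells (cluster 11, median 1508 to 1957 UMIs) were called G2/M without Hmgb2 in 1.28 to 3.66% of cells, and mutant osteoblast-like cells with the whole list in 2.58% at day 19 and 0.68% at day 13.

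Summed over chondrocyte-like cells, the mutant stood below the wild type at day 19 and above it at day 13. For the 24 G2/M genes the total came to 829 CPM in the mutant and 1252 CPM in the wild type at day 19, a log2 ratio of -0.60 (95% counting interval -0.62 to -0.57), and to 823 CPM in the mutant and 682 CPM in the wild type at day 13, a log2 ratio of 0.27 (0.25 to 0.29). S genes summed to 241 CPM in the mutant and 283 CPM in the wild type at day 19 (log2 ratio -0.23) and to 243 CPM in the mutant and 197 CPM in the wild type at day 13 (0.31). The median of all measured genes had log2 ratios of 0.06 at day 19 and 0.20 at day 13. Between the ages, the wild type G2/M sum was 1252 CPM at day 19 against 682 CPM at day 13 (log2 ratio 0.88), whereas the mutant had 829 CPM at day 19 against 823 CPM at day 13 (0.01, interval -0.02 to 0.03). The G2/M sums of the mutant libraries lay between those of the wild type libraries. This class leaves out cluster 4 and the osteoblast-like cells, both mostly mutant. The mutant had 657 cells of cluster 4 and 250 osteoblast-like cells at day 19, and 751 and 456 at day 13. Over all skeletal-lineage cells, which add these and the fibroblast-like cells, the G2/M log2 ratio was -0.85 at day 19 and only 0.063 at day 13. Markers of erythroid cells summed to 5603 CPM in mutant and 9190 CPM in wild type chondrocyte-like cells at day 19, and to 867 CPM in mutant and 2488 CPM in wild type at day 13, with none of the 14 markers at 0, and their part in these sums was not tested. Chondrocyte-like cells had 0.50 to 0.56 Mki67 UMIs per Top2a UMI, against 2.36 to 3.58 in erythroid-like cells.

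Mutant and wild type cells of the class fell largely into different clusters. Most wild type chondrocyte-like cells called G2/M lay in cluster 10, led by C1qtnf3, Il17b, Ppa1 and Matn3, which held 102 of 144 such cells (70.8%) at day 19 and 168 of 274 (61.3%) at day 13. Its G2/M fraction in the wild type was 30.3% (25.4 to 35.5%) at day 19 against 17.3% (14.96 to 19.8%) at day 13. The mutants had only 8 cells there at day 19, of which 5 were called G2/M, and 20 at day 13, of which 8 were. In the mutants, clusters 1 (led by Myoc and Pi15) and 5 (Cryba2 and Mmp13) held most called cells, and wild type libraries had at most 33 cells in either. In the mutant, the G2/M fraction of cluster 1 was 7.83% at day 19 against 6.74% at day 13, and that of cluster 5 was 6.91% at day 19 against 8.34% at day 13.

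Clusters 2, 3 and 7 had 50 or more cells in every library, and in clusters 2 and 7 the G2/M fraction was higher in the mutant at both ages. Cluster 7, which carries the resting-zone genes Sfrp5, Pcp4 and Ucma, had 16.7% G2/M cells in the mutant (11.4 to 23.2%, 168 cells) and 7.66% in the wild type (4.44 to 12.1%, 209 cells) at day 19, and 19.5% in the mutant (11.3 to 30.1%, 77 cells) and 5.66% in the wild type (4.44 to 7.10%, 1237 cells) at day 13. Cluster 2, led by Matn1 and Frzb, had 8.84% in the mutant and 1.85% in the wild type at day 19, and 5.68% in the mutant and 1.07% in the wild type at day 13. Cluster 9, the Col10a1 and Ihh cells at the end of the column, had 11.8% in the mutant and 0 of 44 cells in the wild type at day 19, which allows a share of up to 8.04% (exact 95% bound), and 6.50% in the mutant and 1.48% in the wild type at day 13. Cluster 3, the Prg4 and Cilp cells of the joint surface, had 6.42% in the mutant and 9.29% in the wild type at day 19 and 6.57% in the mutant and 4.19% in the wild type at day 13, with overlapping intervals. Over clusters 2, 3 and 7 together, a choice made after the clusters were seen, the log2 ratio of the G2/M sum was 0.33 at day 19 and 1.02 at day 13, so that the day 19 direction turned. The libraries filled these clusters unequally, with 239 mutant and 1526 wild type cells in cluster 2 at day 13. No test was possible at a single age.

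**Figure D2:**
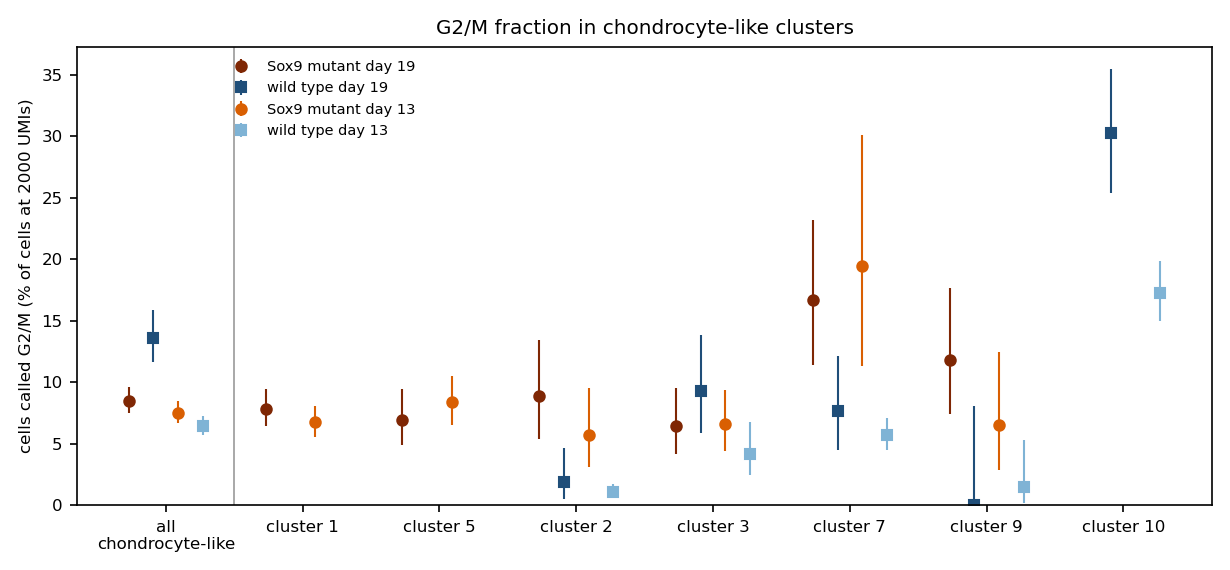
Share of cells called G2/M (percent of cells thinned to 2000 UMIs) in all chondrocyte-like cells and in each of their clusters, by library, for groups of 40 or more cells. Bars are exact 95% binomial intervals. In all chondrocyte-like cells the day 19 wild type is highest (13.6%), and that library's highest cluster is 10 (30.3%), where mutants have too few cells to plot, whereas in clusters 2, 7 and 9 both mutants lie above both wild types.

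Across the 4 libraries, an edgeR quasi-likelihood fit with genotype and age as additive terms was made on summed counts of chondrocyte-like cells. It has 1 residual degree of freedom. Its p-values set each effect against a variance that does not hold the spread between mice. Most of that variance is borrowed across genes (prior degrees of freedom 12.7), and the rest is how far the genotype difference varies between ages. All 36 members were tested. Of these, 4 fell in the mutant and 0 rose at an adjusted p of 0.05, 11.1% of the members, against 26.4% of all 15138 genes tested (12.2% fell and 14.2% rose). DESeq2 called 2 members for genotype, where 10.2% of all genes were called, and 0 for age, where 0.48% were called. For age, 10 members had an unadjusted p under 0.05 by DESeq2, and the share of all genes at that cut is not given. The median log2 change was -0.25 over the members and 0.01 over all genes, with 31 of 36 members on the negative side. All 4 calls were falls, and 11.1% stands close to the 12.2% of all genes that fell. The number of members called was 9 over all skeletal-lineage cells, 10 in cells of 1000 or more genes, 10 with cluster 4 and 0 in clusters 2, 3 and 7. The share of all genes called in these settings is not given, so these counts cannot be read as a result about the members. Without the composition scaling (TMM) the fitted change of 11 members, none of them called, had the other sign, and Cdc20 and Cenpa were no longer called.

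Mcm6, a subunit of the MCM ring that unwinds DNA, fell most. It lies on GRCm38 chr1:128331590-128359664, minus strand (ENSMUSG00000026355). Its level was 14.8 CPM in the mutant and 28.4 CPM in the wild type at day 19, and 14.8 CPM in the mutant and 20.5 CPM in the wild type at day 13, so both mutants lay below both wild types. The fitted log2 change was -0.90 (SE 0.15, adjusted p = 0.000493 by edgeR, lower in the mutant at both ages). None of the other 5 subunits of the ring passed. Mcm7, the most abundant, had 30.4 CPM in the mutant and 33.5 CPM in the wild type at day 19, and 33.9 CPM in the mutant and 26.1 CPM in the wild type at day 13. Mcm3 had 24.9 CPM in the mutant and 26.6 CPM in the wild type at day 19, and 24.2 CPM in the mutant and 16.2 CPM in the wild type at day 13, the lowest of the 4 libraries. Mcm2, Mcm3, Mcm4 and Mcm5 had fitted log2 changes of -0.18 to 0.12. Within cluster 2, Mcm6 had 13.5 CPM in the mutant and 16.7 CPM in the wild type at day 19, and 14.2 CPM in the mutant and 14.6 CPM in the wild type at day 13. Cluster 3 had 13.6 CPM in the mutant and 19.7 CPM in the wild type at day 19, and 19.2 and 20.9 CPM at day 13. In cluster 7 Mcm6 was higher in the mutant at day 19, with 27.8 CPM against 23.6 CPM in the wild type. At day 13 that cluster had 20.2 CPM in the mutant and 23.1 CPM in the wild type. In cluster 10, which is nearly all wild type, it had 39.0 CPM at day 19 against 25.7 CPM at day 13 in wild type, and in cluster 5, nearly all mutant, 8.7 CPM at day 19 against 9.7 CPM at day 13 in the mutant. In clusters 2, 3 and 7 its log2 change was -0.27 with an adjusted p of 0.41 by edgeR.

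The other S genes supply nucleotides, load the polymerase or start S phase. Rrm2, the regulated subunit of ribonucleotide reductase (GRCm38 chr12:24708241-24714146, plus strand, ENSMUSG00000020649), was the 1 member called for age. Its level was 32.2 CPM at day 19 against 13.0 CPM at day 13 in wild type, and 29.0 CPM at day 19 against 22.4 CPM at day 13 in mutant. The log2 rise with age was 0.79 (SE 0.18, adjusted p = 0.0443 by edgeR, higher at day 19 in both genotypes), where 1.65% of all genes were called for age (1.41% rose). That call was lost in 7 of 10 alternatives, with adjusted p from 0.00014 to 0.9999. Pcna, the sliding clamp, did not pass for either effect and had 30.5 CPM in the mutant and 33.9 CPM in the wild type at day 19 and 34.2 CPM in the mutant and 31.0 CPM in the wild type at day 13. Rrm1, the partner of Rrm2, had 24.7 CPM in the mutant and 31.2 CPM in the wild type at day 19, and 24.1 CPM in the mutant and 20.8 CPM in the wild type at day 13. The E cyclins Ccne1 and Ccne2, which open S phase with CDK2, passed for neither genotype nor age. Ccne2 had 7.9 CPM in the mutant and 8.2 CPM in the wild type at day 19, and 9.2 CPM in the mutant and 7.9 CPM in the wild type at day 13. Ccne1 had 8.4 CPM in the mutant and 6.8 CPM in the wild type at day 19, and 8.4 CPM in the mutant and 8.9 CPM in the wild type at day 13.

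Among the engines of mitosis, Cdk1, its cyclin partners and the kinases it hands over to, 1 of 9 passed. Cdk1, the mitotic kinase, had 45.4 CPM in the mutant and 62.9 CPM in the wild type at day 19, and 43.1 CPM in the mutant and 34.0 CPM in the wild type at day 13. Ccnb2, a B cyclin, had 20.4 CPM in the mutant and 31.6 CPM in the wild type at day 19, and 19.5 CPM in the mutant and 16.8 CPM in the wild type at day 13. Both genes had the day 19 wild type highest and the day 13 wild type lowest. Pbk, a mitotic kinase also called TOPK (GRCm38 chr14:65805837-65817822, plus strand, ENSMUSG00000022033), had 16.5 CPM in the mutant and 26.8 CPM in the wild type at day 19, and 13.3 CPM in the mutant and 14.99 CPM in the wild type at day 13. It fell by 0.63 on the log2 scale (SE 0.16, adjusted p = 0.0081 by edgeR, lower in the mutant at both ages). Aurkb, of the complex that corrects spindle attachment, had 8.5 CPM in the mutant and 10.04 CPM in the wild type at day 19, and 7.4 CPM in the mutant and 5.6 CPM in the wild type at day 13. The polo kinase Plk1, the checkpoint kinase Bub1 and Aurka stayed under 11 CPM in every library.

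The anaphase-promoting complex ends mitosis by marking cyclins and securin for destruction. Its activator Cdc20 (GRCm38 chr4:118432901-118437352, minus strand, ENSMUSG00000006398) had 25.5 CPM in the mutant and 33.6 CPM in the wild type at day 19, and 21.02 CPM in the mutant and 22.0 CPM in the wild type at day 13. It fell by 0.43 on the log2 scale (SE 0.14, adjusted p = 0.0364 by edgeR), but its day 13 log2 CPM ratio was -0.07, with an interval of -0.20 to 0.06. Ube2c, the enzyme that supplies ubiquitin to the complex, had 61.5 CPM in the mutant and 105.5 CPM in the wild type at day 19, and 60.4 CPM in the mutant and 51.0 CPM in the wild type at day 13, and did not pass (adjusted p = 0.071 by edgeR).

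The most abundant members were a pair of chromosome genes. Hmgb2, a chromatin protein, had 209 CPM in the mutant and 299 CPM in the wild type at day 19, and 217 CPM in the mutant and 194 CPM in the wild type at day 13. Top2a, which untangles replicated DNA, had 83.1 CPM in the mutant and 142.3 CPM in the wild type at day 19, and 86.6 CPM in the mutant and 67.8 CPM in the wild type at day 13. Neither passed for genotype. Cenpa, the histone that marks the centromere (GRCm38 chr5:30666777-30674830, plus strand, ENSMUSG00000029177), had 37.2 CPM in the mutant and 56.6 CPM in the wild type at day 19, and 35.8 CPM in the mutant and 37.5 CPM in the wild type at day 13, and fell by 0.53 on the log2 scale (SE 0.14, adjusted p = 0.013 by edgeR). Its day 13 log2 CPM ratio was -0.07, with an interval of -0.17 to 0.03. Cenpa, Pbk and Cdc20 were the 3 G2/M members not higher in the mutant at day 13. Over clusters 2, 3 and 7 the log2 changes of Cenpa, Pbk and Cdc20 were 0.61, 0.47 and 0.63, on the other side of 0 and not called.

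Of the 5 spindle and cytokinesis genes none passed. Prc1, which bundles the midzone of the spindle, had 46.5 CPM in the mutant and 64.5 CPM in the wild type at day 19, and 46.6 CPM in the mutant and 32.7 CPM in the wild type at day 13. Tpx2, which activates Aurora A on the spindle, had 26.7 CPM in the mutant and 36.2 CPM in the wild type at day 19, and 26.1 CPM in the mutant and 19.3 CPM in the wild type at day 13. Kif23, the motor of the central spindle, was the 1 G2/M member not lower in the mutant at day 19, at 16.1 CPM in the mutant and 15.9 CPM in the wild type. In all, 21 of 24 G2/M members and 10 of 12 S members were higher in the mutant at day 13, and 1 of each at day 19.

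**Figure D3:**
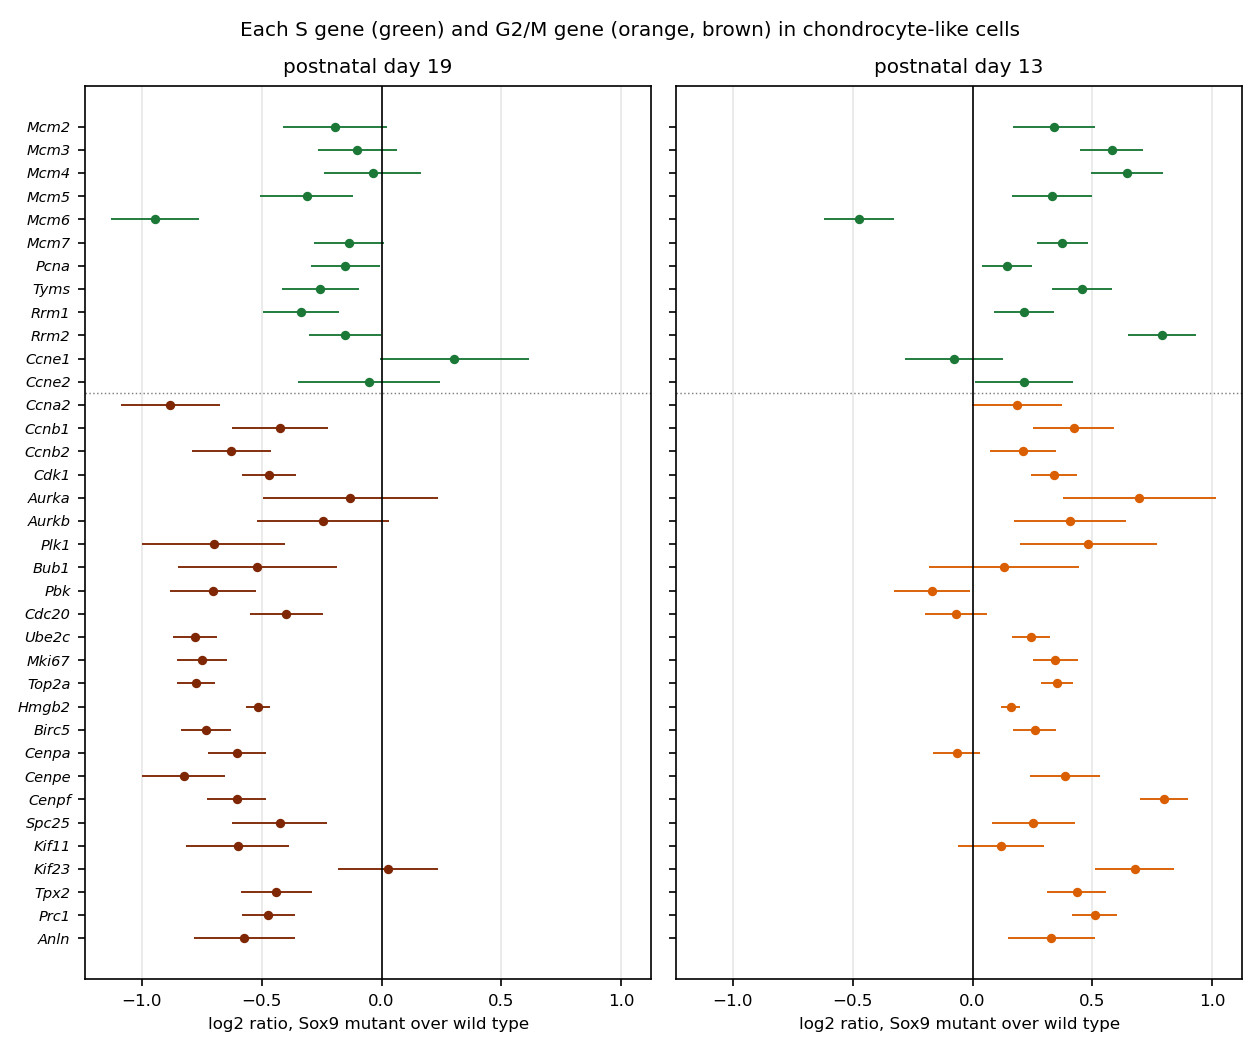
Log2 ratio of CPM, Sox9 mutant over wild type, for each of the 36 members in chondrocyte-like cells at day 19 (left) and day 13 (right), with S genes in green above the dotted line. Bars are exact 95% counting intervals. G2/M genes lie left of 0 at day 19 except Kif23 and mostly right of 0 at day 13, and Mcm6 lies left of 0 at both ages.

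Further S phase, G2/M and regulator genes, listed apart from the members, were tested in the same fit of chondrocyte-like cells. In the mutant 5 of 30 other S genes fell (Ung, Dut, Rpa2, Fen1 and Cdca7) and 0 rose. Ung and Dut both keep uracil out of DNA, with log2 changes of -1.10 and -0.70 (adjusted p = 0.000252 and 0.00166 by edgeR). Of 32 other G2/M genes, 5 fell, among them Cdca3 (-1.15) and the spindle checkpoint gene Mad2l1 (-1.09), with adjusted p of 0.000192 and 0.000239 by edgeR. Of 16 regulators, 3 fell, namely Mybl2, the MYB of the MuvB complex (-0.79, adjusted p = 0.0225), the E2F partner Tfdp1 (-0.50, adjusted p = 0.0165) and the repressor E2f8 (-0.86, adjusted p = 0.0193), by edgeR. These shares, 16.7%, 15.6% and 18.8%, stand beside the 12.2% of all genes that fell. For age, E2f2 alone rose among the regulators (1.45, SE 0.32, adjusted p = 0.0365 by edgeR), and erythroid markers in the same cells were higher at day 19 in both genotypes, as given above; their part in it was not tested.

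Erythroid-like clusters differed in the balance of S and G2/M genes. Cluster 27 was led by Hemgn and Cpox, with Klf1 among its leading genes. At least 99.4% of its thinned cells were called G2/M in every library. The cut for that call is low against the levels in this cluster, where Hmgb2 alone stood at 2987 to 3984 CPM across the libraries. A cell called G2/M cannot be called S, so this share cannot separate S cells from G2/M cells. S genes stood there at 2882 CPM in the mutant and 3080 CPM in the wild type at day 19. At day 13 they stood at 3110 CPM in the mutant and 3507 CPM in the wild type. In cluster 28, with Slc4a1 and haemoglobin genes among its leading genes, the S genes stood at 287 CPM in the mutant and 499 CPM in the wild type at day 19, and at 491 CPM in the mutant and 224 CPM in the wild type at day 13. Its G2/M genes without Hmgb2 stood at 6776 CPM in the mutant and 6320 CPM in the wild type at day 19, and at 6390 CPM in the mutant and 8053 CPM in the wild type at day 13, against 7249 to 8663 CPM in cluster 27. The UMI ratio of S to G2/M genes was thus 0.03 to 0.08 in cluster 28 against 0.35 to 0.44 in cluster 27 in every library. At day 19 Mcm6 had 7.9 CPM in the mutant and 18.1 CPM in the wild type in cluster 28, against 148.1 CPM in the mutant and 146.6 CPM in the wild type in cluster 27. Ube2c had 1255 CPM in the mutant and 1241 CPM in the wild type in cluster 28, against 891 CPM in the mutant and 1070 CPM in the wild type in cluster 27. Cluster 20, the late cells led by Tmcc2, Bpgm and haemoglobins, had 935 CPM of G2/M genes without Hmgb2 in the mutant and 936 CPM in the wild type at day 19. Clusters were defined on these cells, though without the members, so these values describe them and were not tested.

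The proliferation marker Mki67 also stood in another proportion to Top2a in erythroid than in other dividing cells. Erythroid-like cells had 3.58 Mki67 UMIs per Top2a UMI in the mutant and 2.46 in the wild type at day 19, and 2.93 in the mutant and 2.36 in the wild type at day 13. B cell-like cells had 0.58 in the mutant and 0.46 in the wild type at day 19, and 0.62 in the mutant and 0.61 in the wild type at day 13. In cluster 28 the ratio reached 6.08 in the mutant and 3.76 in the wild type at day 19. The ratio lay above 2 in each erythroid cluster and library with enough counts, and under 1 in each chondrocyte-like, B cell-like and progenitor cluster shown. Some other cells had ratios above 1. The unnamed cluster 8 had 1.34 in the mutant and 1.17 in the wild type at day 19, and 1.38 and 1.65 at day 13. In the day 19 mutant, fibroblast-like cells had 1.40 and endothelial-like cells 1.19.

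**Figure D4:**
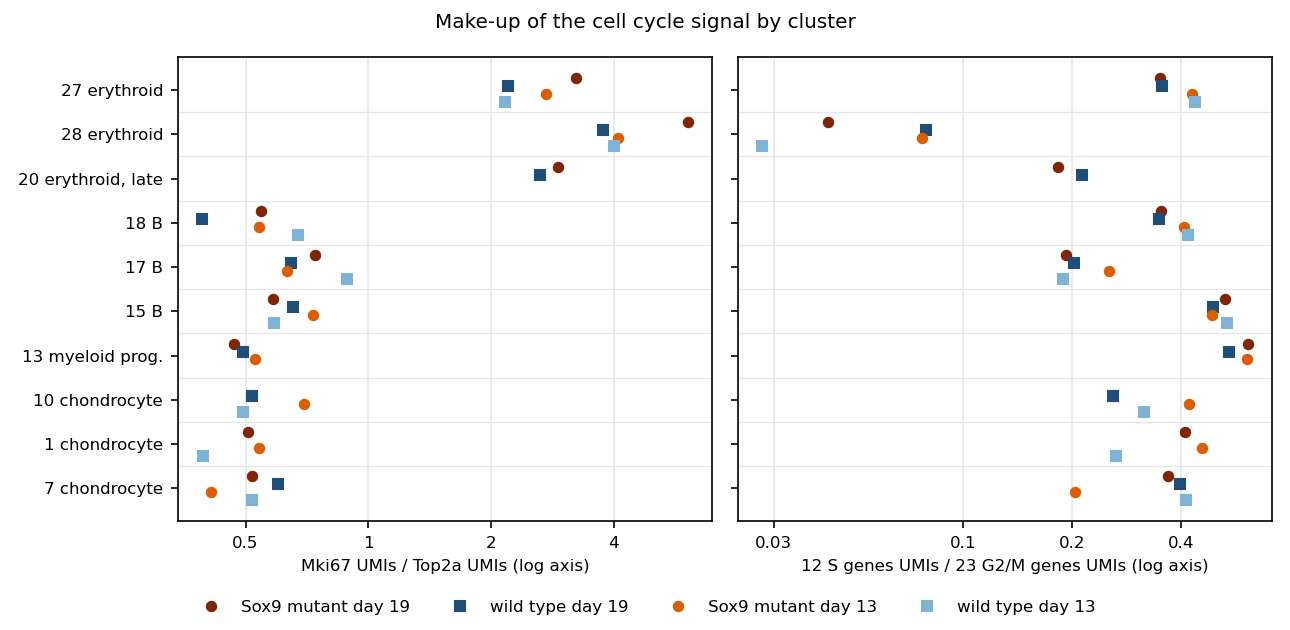
UMIs of Mki67 per UMI of Top2a (left) and UMIs of the 12 S genes per UMI of the 23 G2/M genes without Hmgb2 (right), on log axes, by cluster (rows, with number and class) and library, where both sums reach 10 UMIs. The 3 erythroid clusters stand to the right of the others in the left panel, and cluster 28 stands far to the left in the right panel, at 0.03 to 0.08.

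Called by edgeR between genotypes, erythroid-like cells had 1 member lower in the mutant, Cenpa (log2 -0.69, SE 0.18, adjusted p = 0.0483), where 3.33% of all genes were called (1.24% fell). At day 19 the log2 CPM ratio of Cenpa, mutant over wild type, was -0.02, with a 95% interval of -0.12 to 0.07. The day 13 ratio was -0.998, with an interval of -1.26 to -0.74, so the difference lay at day 13. Cdca3 and Arl6ip1 of the other G2/M genes fell as well (-1.42 and -0.91), and Arl6ip1 and Nusap1 rose with age (0.80 and 0.74), with adjusted p of 0.000345, 0.00775, 0.0312 and 0.0411 by edgeR in the order named. For age, 0 of 36 members passed in these cells (12 at an unadjusted p under 0.05), where 2.33% of all genes were called. That share is at the adjusted threshold, and no share of all genes is given beside the 12. Between genotypes, all 24 G2/M members had negative fitted changes (median -0.42), while the summed G2/M level was 8868 CPM in the mutant and 8451 CPM in the wild type at day 19, and 7335 CPM in the mutant and 10331 CPM in the wild type at day 13. The fitted changes are a single genotype term over both ages with TMM scaling, whereas each sum is CPM of 1 age without TMM. The higher day 19 sum in the mutant and the negative fitted median are thus not like measures. The part of the scaling in the negative fitted changes of this class was not tested. The late cluster 20, low in these genes, held 204 of 942 mutant and 389 of 1366 wild type erythroid-like cells at day 19, and 54 of 162 mutant and 28 of 182 wild type cells at day 13.

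Within B cell-like cells, the signal lay mainly in clusters 18 and 15. Cluster 18, which expresses Myl4, Vpreb3 and Pafah1b3, had 13425 CPM of the 24 G2/M genes in the mutant and 15030 CPM in the wild type at day 19, and 12355 CPM in the mutant and 12319 CPM in the wild type at day 13. Cluster 15, the Vpreb1, Igll1 and Dntt cells, which assemble the pre-B cell receptor, had 6447 CPM in the mutant and 7531 CPM in the wild type at day 19, and 6817 CPM in the mutant and 6977 CPM in the wild type at day 13. Cluster 21, with the surface immunoglobulin genes Igkc and Iglc2, had 2207 CPM in the mutant and 1742 CPM in the wild type at day 19, and 2098 CPM in the mutant and 1265 CPM in the wild type at day 13. Cluster 17, the largest of the class at day 19, held 844 of 1993 mutant and 1443 of 3329 wild type cells. At day 19 each of its G2/M members was higher in the mutant, with Top2a at 392.9 CPM against 257.3 CPM in the wild type. At day 13 its Top2a was also higher in the mutant (355.9 against 207.6 CPM), but its Cenpa was lower (160.2 against 196.1 CPM). Cluster 18 held 476 of 1993 mutant and 905 of 3329 wild type B cell-like cells at day 19, and 200 of 983 mutant and 32 of 360 wild type cells at day 13. In the fit across libraries 0 of 36 members passed for genotype by edgeR (3 at an unadjusted p under 0.05) and 0 for age (18 at an unadjusted p under 0.05), where 2.69% and 1% of all genes passed. These shares are at the adjusted threshold, and no share of all genes is given beside the 3 and the 18. All 24 G2/M members had positive fitted changes with age, with a median of 0.48, and the median over all genes is not given for this class. Of the other G2/M list, Gtse1 rose in the mutant (1.25, SE 0.22, adjusted p = 0.0025 by edgeR).

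Neutrophil-like cells had 36 of 36 members with negative fitted changes in the mutant (median -0.75), but only Tyms, the maker of thymidylate, passed (-1.56, SE 0.29, adjusted p = 0.0172 by edgeR), where 2.09% of all genes did (0.401% fell). At a single age most log2 CPM ratios were negative. Some were positive with intervals across 0, among them Mcm5 (0.46) at day 13 and Pbk (0.26) at day 19. The share of all genes with a negative fitted change is not given for this class, and the part of the TMM scaling was not tested. For age 0 passed there (10 at an unadjusted p under 0.05), where 0.268% of all genes did. Fibroblast-like cells had 0 members called for genotype (9 of the 30 tested at an unadjusted p under 0.05), where 1.13% of all genes passed, and Hmgb2 called for age (1.07, SE 0.18, adjusted p = 0.0407 by edgeR), where 0.347% of all genes passed (0.314% rose). In monocyte-like cells 0 members were called by edgeR for genotype (1 at an unadjusted p under 0.05, with 0.551% of all genes called) or for age (14, with 0.148%). In macrophage-like cells 0 of the 35 tested were called by edgeR for genotype (4 at an unadjusted p under 0.05, with 0.712% of all genes called) or for age (4, with 0.229%). Every share of all genes in this paragraph is at the adjusted threshold, and none is given beside the counts at an unadjusted p.

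Hmgb2 and Kif23 were also found in mature neutrophil-like cells, a pair chosen after their values were seen. Cells of cluster 11, led by Stfa2, Cxcl2, Il1b and Retnlg, were called G2/M in 44.3% of mutant cells and 41 of 82 wild type cells at day 19, and in 41.0% of mutant and 31.0% of wild type cells at day 13. The shares rest on 149 mutant and 82 wild type cells at day 19 and 78 mutant and 58 wild type cells at day 13, since most cells there held under 2000 UMIs. Without Hmgb2 the share was 1.28 to 3.66%. Hmgb2 had 1092 CPM in the mutant and 1076 CPM in the wild type at day 19 and 1090 CPM in the mutant and 843 CPM in the wild type at day 13. Hmgb2 gave 23.9 to 28.5% of the G2/M UMIs in chondrocyte-like cells, 42.6 to 44.7% in B cell-like cells and 77.8% in cluster 11 of the day 19 mutant. Kif23 (GRCm38 chr9:61915905-61946774, minus strand, ENSMUSG00000032254) was measured in cluster 11 at 48.0 CPM in the mutant (53 UMIs) and 61.4 CPM in the wild type (21 UMIs) at day 19, and at 102.8 CPM in the mutant (50 UMIs) and 77.9 CPM in the wild type (29 UMIs) at day 13. Other members were found in cluster 11 at levels like that of Kif23. At day 19 Mki67 had 48.0 CPM in the mutant and 99.4 CPM in the wild type. Cenpa had 45.3 CPM in the mutant and 43.9 CPM in the wild type, and Pcna 45.3 and 20.5 CPM. At day 13 Pcna had 49.3 CPM in the mutant and 77.9 CPM in the wild type, and Mki67 14.4 and 10.7 CPM. Prc1, which works with Kif23 at the spindle midzone, had 10.9 CPM in the mutant and 14.6 CPM in the wild type at day 19, and 10.3 CPM in the mutant and 13.4 CPM in the wild type at day 13. In the elastase-expressing progenitors of cluster 13 Kif23 had 33.1 CPM in the mutant and 56.3 CPM in the wild type at day 19, and Prc1 had 67.2 CPM in the mutant and 121.9 CPM in the wild type. At day 13 cluster 13 held only 33 mutant and 14 wild type cells, with Kif23 at 39.7 CPM in the mutant and 60.3 CPM in the wild type and Prc1 at 88.8 CPM in the mutant and 84.4 CPM in the wild type. Kif23 stood above Prc1 in cluster 11 in every library, and below it in cluster 13 at day 19. The excess was not particular to cluster 11. In the B cell-like cluster 21 Kif23 also stood above Prc1 in every library. At day 19 it had 71.9 against 53.9 CPM in the mutant there, and 83.5 against 41.8 CPM in the wild type. T and NK-like cells of the day 19 mutant had 74.5 against 12.8 CPM, and those of the day 19 wild type had 101.0 CPM of both.

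**Figure D5:**
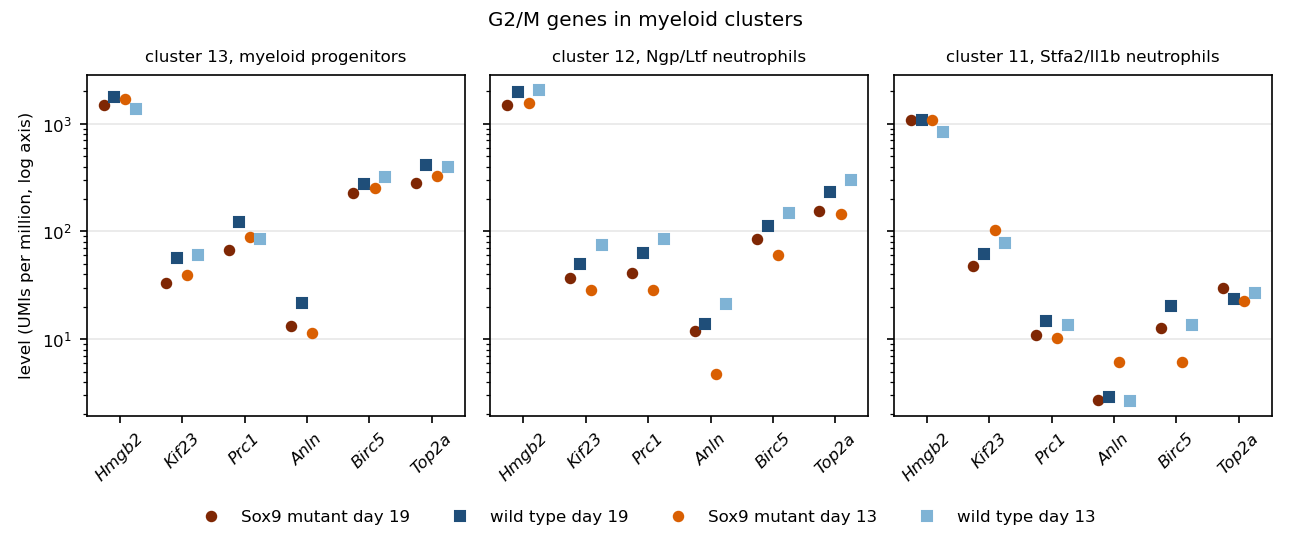
Level in CPM (log axis) of Hmgb2, Kif23, Prc1, Anln, Birc5 and Top2a in myeloid progenitors (cluster 13), Ngp and Ltf neutrophil-like cells (cluster 12) and mature neutrophil-like cells (cluster 11), by library, with values of 0 not drawn. Prc1 is at 10.3 to 14.6 CPM in cluster 11 and at 67.2 to 121.9 CPM in cluster 13, while Kif23 is at 48.0 to 102.8 CPM in cluster 11.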

How the data were processed

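Single-cell RNA-seq counts came from 4 filtered 10x matrices. The authors made these UMI count tables with Cell Ranger 3.1.0 per the file headers, on the mm10 build per the submitters' processing notes, and no value was normalized before deposit. Members were matched by symbol. The members, lists and markers were chosen with earlier results of these data known. Cells with 500 or more genes and up to 15% mitochondrial UMIs were kept, and cells with a Scrublet score above 0.25 were left out as doublets. This cut was set by hand after the automatic threshold failed in the wild type libraries. Cells were clustered with scanpy 1.11.5 without cell cycle genes, and clusters were named from fixed markers. Levels are CPM of the summed counts, that is UMIs per 1000000. Fractions use cells thinned to 2000 UMIs. Counts summed by library and class were tested with edgeR 4.0.16 (quasi-likelihood, TMM, genotype plus age, Benjamini-Hochberg adjustment over all genes tested), which was tested on simulated data. A single age has 1 library a group, so ratios carry counting intervals and no p-value. Genes named in full were the 2 with the highest mean level in each role and every member called in chondrocyte-like cells. DESeq2 1.42.0 was an alternative.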

Additional observations from a re-analysis of the deposited data

Results flagged for a closer look

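These results went one way in the mutant at day 19 and the other way at day 13. The values are log2 ratios of summed CPM, mutant over wild type. With 1 library a group the difference between the ages was not tested. In chondrocyte-like cells the G2/M sum had -0.60 at day 19 and 0.27 at day 13, and the S sum had -0.23 at day 19 and 0.31 at day 13. Over all skeletal-lineage cells the G2/M sum had -0.85 at day 19 and 0.063 at day 13. In B cell-like cells the G2/M sum had -0.25 at day 19 and 0.35 at day 13, and the S sum -0.15 at day 19 and 0.14 at day 13. The class's cells lay in different clusters: at day 13 cluster 18, the highest in these genes, held 200 of 983 mutant and 32 of 360 wild type cells, and within it the G2/M sum was 12355 CPM in the mutant and 12319 CPM in the wild type. Monocyte-like cells had -0.53 at day 19 and 0.87 at day 13 for G2/M, and -0.27 at day 19 and 1.02 at day 13 for S. The S sum of fibroblast-like cells had -0.50 at day 19 and 0.47 at day 13. Erythroid-like cells went the other way round, with 0.069 at day 19 and -0.49 at day 13 for G2/M, and 0.17 at day 19 and -0.41 at day 13 for S. At day 13 the late erythroid cluster 20, low in these genes, held 54 of 162 mutant and 28 of 182 wild type cells. In macrophage-like cells the G2/M sum had 0.93 at day 19 and -0.21 at day 13. Every one of these ratios shares its libraries with the others of that age.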

How the results depend on the processing

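No paired analysis was possible because each group has 1 library. For the same reason no replicate could be left out, and permuting 2 against 2 libraries cannot give a small p. The cause of the changes below was not tested. The values below are for chondrocyte-like cells. The choices of cluster 4, of shared clusters and of leaving out Hmgb2 were made after seeing the data. Mutant minus wild type in percentage points, the S fraction at day 19 was 1.13 thinned to 4000 UMIs and 1.08 with a cut 1 UMI lower, and at day 13 it was 3.08, 2.61 and, by scanpy scores, -2.28. The G2/M fraction at day 13 was 3.30 thinned to 4000 UMIs, 4.24 with the lower cut and 4.37 in clusters 2, 3 and 7, where day 19 gave 3.15. As log2 ratios of mutant over wild type, the G2/M level at day 19 was -0.55 with doublets kept, -0.77 with clusters made with cell cycle genes, -0.85 over all skeletal-lineage cells, -0.75 with cluster 4, 0.33 in clusters 2, 3 and 7, -0.54 with other genes and -0.62 without Hmgb2. At day 13 it was 0.32 with clusters made with cell cycle genes, 0.063 over skeletal cells, 0.21 with cluster 4, 1.02 in clusters 2, 3 and 7, 0.33 as the members' median and 0.31 without Hmgb2. The S level at day 19 was -0.32, -0.38, -0.33 and 0.37 for the same first 4 of these settings, and -0.15 as the median. At day 13 it was 0.12 over skeletal cells, 0.23 with cluster 4, 0.63 in clusters 2, 3 and 7 and 0.22 with other genes. As log2 ratios of day 19 over day 13, the mutant G2/M level was 0.054 with doublets kept, -0.20 with clusters made with cell cycle genes, -0.047 over skeletal cells, -0.11 with cluster 4 and 0.074 as the median, and the S level was -0.13 with clusters made with cell cycle genes, -0.057 with cluster 4 and 0.036 in clusters 2, 3 and 7. In the wild type the G2/M level was 0.85 with cluster 4, 0.72 in clusters 2, 3 and 7, 0.82 with other genes, 0.94 as the median and 0.97 without Hmgb2, and the S level was 0.29 in clusters 2, 3 and 7 and 0.46 with other genes. Members called for genotype, 4 as reported, were 2 without TMM, 1 with one factor only, 9 over skeletal cells, 10 with cells of 1000 or more genes, 10 with cluster 4, 0 in clusters 2, 3 and 7 and 2 by DESeq2. Members called for age, 1 as reported, were 7 without TMM, 6 with cells of 1000 or more genes, 2 with doublets kept, and 0 in the other settings that changed it (no count filter, one factor, skeletal cells, clusters made with cell cycle genes, cluster 4, clusters 2, 3 and 7, DESeq2). Apart from DESeq2, the share of all genes called in each setting is not given, so these counts cannot be read as a result about the members. Pooled over clusters 2, 3 and 7 the genotype changes of Pbk, Cdc20 and Cenpa were 0.47, 0.63 and 0.61, though within cluster 3 Pbk and Cenpa were lower in the mutant at both ages.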
